A study of Mus musculus with 8 samples.

Results

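The genes of the MHC class I peptide presentation route and of the immunoproteasome were followed across 8 RNAseq libraries from mouse intestinal epithelial cells (IECs). They were chosen by gene symbol as B2m, H2-K1, H2-D1, Tap1, Tap2, Tapbp, Psmb8, Psmb9, Psmb10 and Nlrc5. All 10 were listed in both tissues, among 28349 genes in the colon, 38649 in the ileum and 40178 in either. The study asked which RNAs depend on the RNA helicase DDX5 in the healthy gut epithelium. WT IEC mice were Ddx5 +/+ and DDX5 ΔIEC mice were Ddx5 fl/fl, and every mouse of both genotypes carried Villin1Cre. Villin1Cre acts along the whole intestinal epithelium, so the deletion was neither specific to a segment nor to an epithelial cell type. The mice were untreated cohoused littermates, 8 weeks old by their labels. IECs were the cells that EDTA washes released from the gut wall, pooled over the washes and not sorted. Each of 2 mice per genotype gave a colon and an ileum library, so that each of the 4 groups held 2 libraries.

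The libraries of WT IEC colon, replicates 1 and 2, held 17385217 and 20393824 reads counted on genes, those of DDX5 ΔIEC colon 16883951 and 19437275, those of WT IEC ileum 22984283 and 14878989, and those of DDX5 ΔIEC ileum 11768205 and 11571061. RNA levels are given as CPM, counts relative to library sizes that TMM scaled over all 8 libraries together, for replicate 1 and then replicate 2. Log2 fold changes set DDX5 ΔIEC against WT IEC within a tissue and come from edgeR's quasi-likelihood test. A gene met the criterion with a log2 fold change of 0.5 or more, up or down, and an unadjusted p under 0.05. With 2 libraries on each side, an exact permutation test has 0.333 as its smallest two-sided p, and the p-values given here borrow their error from the other genes of the fit.

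MHC class I molecules show peptides from inside the cell to CD8 T cells, and nearly all nucleated cells make them. Proteasomes cut proteins into peptides, the TAP transporter carries the peptides into the endoplasmic reticulum, and a loading complex places them on class I heavy chains paired with beta-2 microglobulin. Interferon gamma raises the transcription of many of these genes, partly through the transactivator NLRC5, and it replaces the catalytic subunits of the constitutive proteasome with those of the immunoproteasome.

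Ddx5 itself was measured first, as a check of the labels. It was at 771 and 706 CPM in WT IEC colon and at 367 and 355 in DDX5 ΔIEC colon, and at 700 and 700 CPM in WT IEC ileum and at 340 and 326 in DDX5 ΔIEC ileum. Every DDX5 ΔIEC library was below every WT IEC library. The counts cover all exons of Ddx5 and do not separate the deleted ones. The labelled tissues were checked with segment markers. The 7 ileal markers summed to 237, 223, 172 and 341 CPM in the colon libraries, in the order WT IEC and then DDX5 ΔIEC, and to 13523, 9573, 15791 and 11703 CPM in the ileum libraries. The 7 colonic markers summed to 4603, 4947, 4554 and 5168 CPM in the colon and to 892, 899, 947 and 770 in the ileum. Each library matched its labelled segment by these sums. Taken singly, 6 of the 7 colonic markers were lower in WT IEC ileum than in WT IEC colon by the adjusted edgeR test. The other 1 was higher there, by 1.07 on the log2 scale. The 9 epithelial markers, led by Krt8, summed to 13887, 13478, 15556 and 14050 CPM in the colon and to 17971, 17256, 21162 and 16257 in the ileum.

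A single library stood apart in its composition. Gm10800, Gm10801 and Gm21738, which resemble repeats, took 19.5% of all counts of DDX5 ΔIEC ileum replicate 2, with a 95% Wilson interval from 19.47% to 19.51%. The share was 0.226% in DDX5 ΔIEC ileum replicate 1, and 4.04% and 3.93% in WT IEC ileum. The interval covers counting error only. The median ileal log2 fold change of the 10 genes is therefore also given without that library.

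Levels within a tissue differed widely between the genes. They are compared as CPM per kilobase of exon, with the SD over n = 2 mice. In WT IEC colon the order was B2m at 421 ± 11.5, H2-K1 at 253 ± 8.52, H2-D1 at 233 ± 5.38, Psmb10 at 54.8 ± 1.27, Tapbp at 54.2 ± 3.4, Psmb8 at 19.7 ± 1.6, Tap1 at 11.5 ± 0.121, Tap2 at 11.0 ± 0.905, Psmb9 at 6.62 ± 0.335 and Nlrc5 at 2.27 ± 0.207 CPM per kilobase. The libraries of Psmb10 and Tapbp overlapped, as did those of Tap1 and Tap2, and all other neighbours in this order were apart in these 2 mice. In WT IEC ileum B2m was again the highest at 683 ± 184 CPM per kilobase and Nlrc5 the lowest at 1.46 ± 1.36. H2-D1 and H2-K1 overlapped there at 267 ± 51.8 and 256 ± 60.8 CPM per kilobase, and Tap1, Psmb9 and Tap2 overlapped in turn at 14.6 ± 7.72, 10.9 ± 6.07 and 9.13 ± 3.34. Together the 10 genes took 0.234% and 0.229% of all counts in WT IEC colon, 0.169% and 0.210% in DDX5 ΔIEC colon, 0.283% and 0.201% in WT IEC ileum and 0.307% and 0.152% in DDX5 ΔIEC ileum.

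In the colon 6 of the 10 class I and immunoproteasome genes were lower in DDX5 ΔIEC than in WT IEC at the criterion. All 10 had a negative log2 fold change, with a median of −0.62, against −0.00 over all 15362 genes tested. None was higher (0 of 10), and 3.67% of all genes tested were lower at the criterion. The 6 were B2m, Tap1, Tap2, Psmb8, Psmb9 and Nlrc5. For 9 of 10, all but Tapbp, both DDX5 ΔIEC libraries lay below both WT IEC libraries, which held for 20.7% of all genes tested. No gene of the 10 passed the Benjamini-Hochberg threshold of 0.05 in edgeR's quasi-likelihood test, nor did any gene in the colon (0 of 15362, or 0.00%), although 1836 had an unadjusted p under 0.05. DESeq2, run with the same terms, placed 117 genes under that adjusted threshold, among them Psmb8, Tap1, B2m and Nlrc5. In bulk libraries fewer cells of a type and less RNA per cell cannot be told apart.

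**Figure D1:**
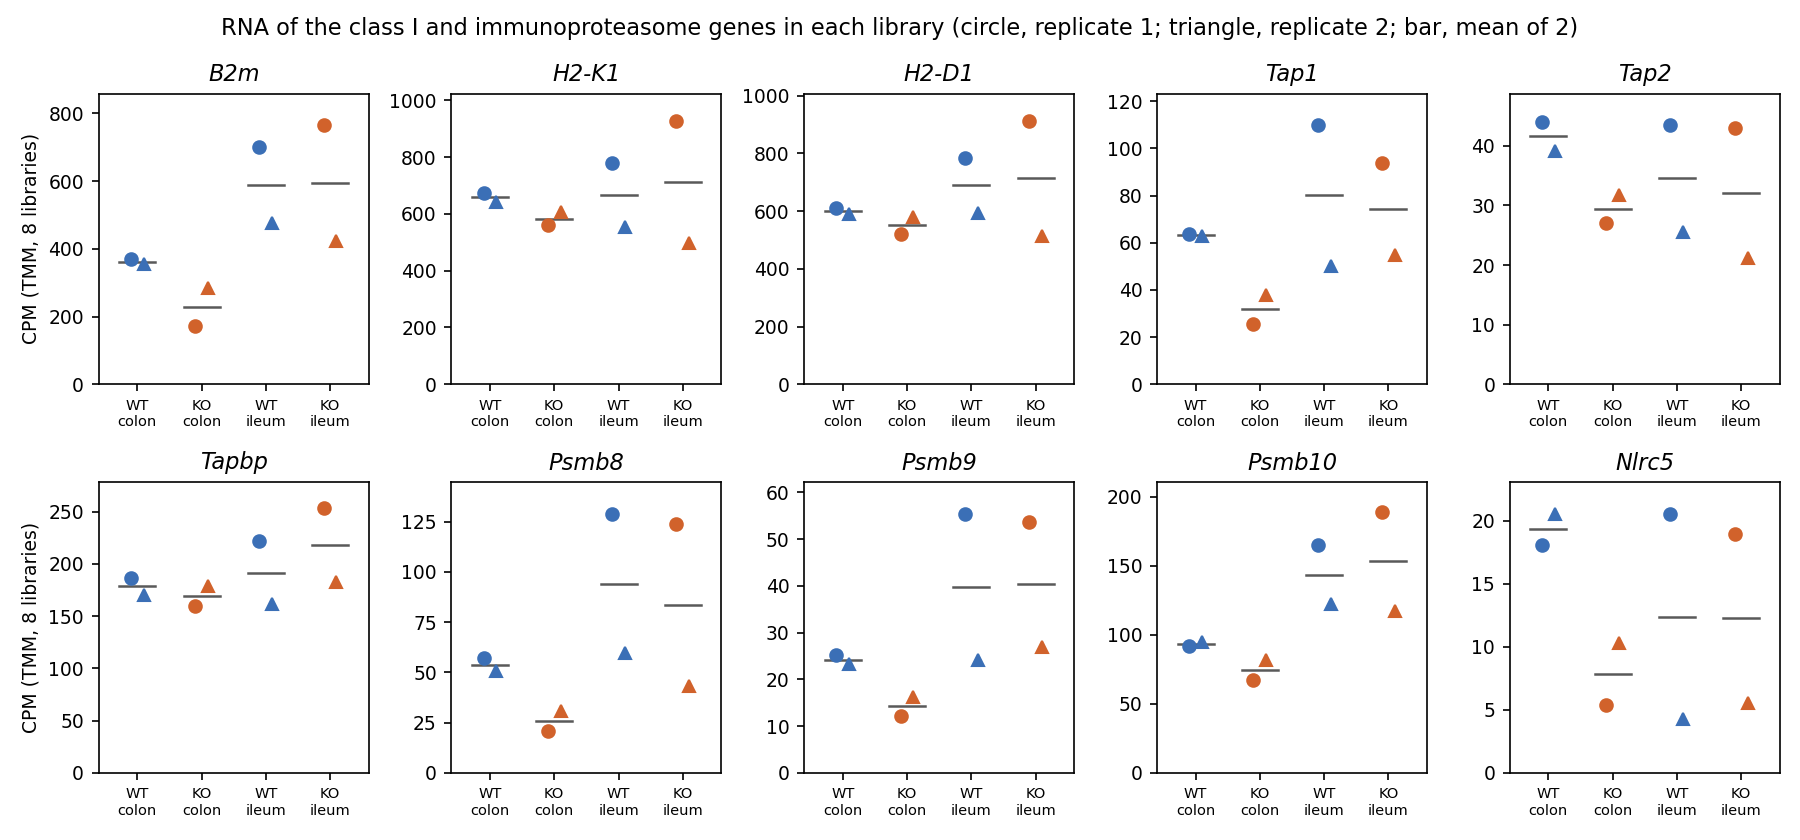
RNA level of each gene in each library, as CPM after TMM scaling over the 8 libraries, on linear axes that start at 0 (WT, WT IEC, blue; KO, DDX5 ΔIEC, orange; circles, replicate 1; triangles, replicate 2; bars, mean of 2 mice). In the colon the 2 orange points lie below both blue points in every panel but that of Tapbp, and in the ileum the circles lie above the triangles in every panel.

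Of the class I chains, the light chain met the criterion in the colon and the heavy chains did not, and whether they differed from each other was not tested. B2m (ENSMUSG00000060802.8, chr2:122147686-122153083 on the plus strand of GRCm38) encodes the light chain that every classical class I molecule shares. B2m was at 369 and 355 CPM in WT IEC colon and at 171 and 285 CPM in DDX5 ΔIEC colon. The DDX5 ΔIEC mice were both lower, replicate 1 more so, and the genotypes did not overlap. The log2 fold change of B2m was −0.72 (standard error 0.20, 95% interval −1.24 to −0.21, unadjusted p = 0.0151, adjusted p = 0.322 by edgeR quasi-likelihood and Benjamini-Hochberg). H2-K1 and H2-D1 encode classical heavy chains. H2-K1 (ENSMUSG00000061232.15, chr17:33996017-34000347, minus strand) was at 675 and 644 CPM in WT IEC colon and at 563 and 605 CPM in DDX5 ΔIEC colon. H2-D1 (ENSMUSG00000073411.11, chr17:35262730-35267499, plus strand) was at 610 and 591 CPM in WT IEC colon and at 522 and 579 CPM in DDX5 ΔIEC colon. Neither heavy chain overlapped between genotypes, but the gaps between the nearest libraries were small. The log2 fold change of H2-K1 was −0.19 (95% interval −0.43 to 0.06, adjusted p = 0.503 by edgeR quasi-likelihood and Benjamini-Hochberg). That of H2-D1 was −0.14 (95% interval −0.39 to 0.11, adjusted p = 0.613 by edgeR quasi-likelihood and Benjamini-Hochberg), and neither heavy chain met the criterion.

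Because a ratio of 2 genes within a library does not depend on how libraries are scaled, the chains were also compared this way, as counts per kilobase of exon. The ratio of B2m to H2-K1 was 1.66 and 1.67 in WT IEC colon and 0.920 and 1.43 in DDX5 ΔIEC colon. The ratio of H2-K1 to H2-D1 stayed between 1.03 and 1.09 in all 4 colon libraries. In the ileum the ratio of B2m to H2-K1 was 2.73 and 2.6 for the WT IEC mice, with 2.50 and 2.58 for the DDX5 ΔIEC mice. B2m was thus lower relative to the heavy chain in both DDX5 ΔIEC colon libraries than in any other library. The ratios are descriptive and were not tested. Class I heavy chain genes resemble each other, and their counts are uncertain to that extent. Of the 50-base words in their transcripts, 9.63% for H2-K1 and 12.8% for H2-D1 also occur in transcripts of other genes, against 0% for B2m, and only uniquely mapped reads had been counted.

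The DNA before the start sites of the chain genes is shown because B2m met the criterion in the colon and the heavy chains did not. Sequences are from RefSeq (GRCm38.p6), whose windows run from 250 bases before to 50 bases after a start site. Of the 10 genes, 8 had an entry, in 9 windows, and Nlrc5 and Tap2 had none. The motifs searched on both strands were GAAANNGAA, a core of the interferon-stimulated response element, and TTCNNNGAA, the gamma-activated site, which reads the same on both strands. They were also CCAAT of the Y box, and TGACGC of the X2 box, and the related TGACGT of the cAMP response element, and the NF-kB site GGGGATTCC. Among all 32851 windows of 300 bases, 8.56% held the first motif, 8.298% the gamma-activated site, 37.41% the Y box letters, 7.403% the X2 letters, 7.513% the cAMP response element letters and 0.2496% the NF-kB site. Each stretch ends at the base before the start site and runs 5′ to 3′ on the strand of the gene, with motif matches in capitals. A match describes the letters only. Other spellings of these elements were not searched, so a stretch without a match may still hold one.
B2m, chr2:122147527-122147686, plus strand: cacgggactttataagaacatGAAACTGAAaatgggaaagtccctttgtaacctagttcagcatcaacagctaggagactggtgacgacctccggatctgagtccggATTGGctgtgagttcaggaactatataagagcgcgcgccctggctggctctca
H2-K1, chr17:34000348-34000527, minus strand: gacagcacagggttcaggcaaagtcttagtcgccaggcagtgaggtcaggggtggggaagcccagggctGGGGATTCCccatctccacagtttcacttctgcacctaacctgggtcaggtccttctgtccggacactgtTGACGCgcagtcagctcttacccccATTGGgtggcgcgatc
H2-D1, chr17:35262914-35263093, plus strand: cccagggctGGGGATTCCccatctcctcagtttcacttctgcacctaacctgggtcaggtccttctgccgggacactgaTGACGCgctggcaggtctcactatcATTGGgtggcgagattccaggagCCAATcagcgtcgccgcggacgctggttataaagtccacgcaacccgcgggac

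In the B2m stretch, the match to GAAANNGAA began 139 bases before the start site and a reverse CCAAT began 53 bases before it. H2-K1 and H2-D1 had no match to GAAANNGAA as spelled here, which does not show that they lack an interferon response element. The H2-K1 and H2-D1 stretches shared a run of 40 bases. In both, the NF-kB letters, the X2 letters and a reverse CCAAT followed in this order, with 70 bases from the first base of the NF-kB match to that of the X2 match and 25 bases from there to the reverse CCAAT. The X2 letters began 41 bases before the start site in H2-K1 and 101 bases before it in H2-D1. H2-K1 had 2 windows, and from the start site of the window not shown its X2 letters began 55 bases before. B2m held neither the NF-kB nor the X2 letters as spelled here, and no window of the 10 genes held TGACGT. The window of Psmb10 held none of the motifs, and that of Tapbp held CCAAT in reverse at 248 and 165 bases before the start site.

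Of the peptide loading genes, both transporter subunits were lower in DDX5 ΔIEC colon at the criterion, and tapasin did not meet it. Tap1 and Tap2 encode the subunits of the peptide transporter. Tap1 (ENSMUSG00000037321.17, chr17:34187553-34197225, plus strand) was at 63.7 and 62.7 CPM in WT IEC colon and at 25.6 and 37.9 CPM in DDX5 ΔIEC colon. Tap2 (ENSMUSG00000024339.12, chr17:34203527-34216321, plus strand) was at 44.0 and 39.2 CPM in WT IEC colon and at 27.0 and 31.7 CPM in DDX5 ΔIEC colon. Both DDX5 ΔIEC mice were below both WT IEC mice for each subunit. The log2 fold change of Tap1 was −1.03 (standard error 0.16, 95% interval −1.45 to −0.61, unadjusted p = 0.00157, adjusted p = 0.238 by edgeR quasi-likelihood and Benjamini-Hochberg). That of Tap2 was −0.51 (standard error 0.13, 95% interval −0.85 to −0.18, unadjusted p = 0.0112, adjusted p = 0.313 by edgeR quasi-likelihood and Benjamini-Hochberg). Tapbp encodes tapasin, which bridges the transporter and the heavy chain. Tapbp (ENSMUSG00000024308.14, chr17:33915899-33929292, plus strand) was at 187 and 171 CPM in WT IEC colon and at 159 and 179 CPM in DDX5 ΔIEC colon, so the genotypes overlapped. Its log2 fold change was −0.09 (95% interval −0.35 to 0.17, adjusted p = 0.752 by edgeR quasi-likelihood and Benjamini-Hochberg). Within each library, the ratio of Tap1 to Tap2 per kilobase was 0.999 and 1.11 in WT IEC colon and 0.655 and 0.826 in DDX5 ΔIEC colon, lower in both DDX5 ΔIEC mice, and was not tested. Of the 50-base words of Tapbp, 23.2% occur in other transcripts, against 11.6% for Tap2 and 3.33% for Tap1.

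Tap1 and Psmb9 lie head to head and were lower together in the colon, so the DNA between them is shown. The RefSeq start sites of the 2 genes are 226 bases apart on opposite strands. The stretch holds every base between them, written on the strand of Tap1, with the motif match in capitals.
Tap1, chr17:34187331-34187555, plus strand: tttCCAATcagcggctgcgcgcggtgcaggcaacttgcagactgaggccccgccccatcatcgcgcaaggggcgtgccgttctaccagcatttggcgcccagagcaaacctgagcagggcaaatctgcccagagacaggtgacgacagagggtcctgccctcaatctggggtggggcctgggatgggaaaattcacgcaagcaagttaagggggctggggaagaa

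A CCAAT match was the only match to the motifs in this stretch. It began 222 bases before the start site of Tap1, and on the strand of Psmb9 it began, in reverse, 8 bases before the start site of Psmb9. In the gene annotation used for positions, Psmb9 and Tap1 share 212 bases on opposite strands. The library kit kept the strand, but the strand setting of the counting is not given in the sources used here. Unless the strand was used in the counting, reads in those 212 bases could not be assigned to one of the 2 genes.

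Of the 3 immunoproteasome genes, Psmb8 and Psmb9 were lower in DDX5 ΔIEC colon at the criterion. Psmb8, Psmb9 and Psmb10 encode the inducible catalytic subunits, which take the places of the products of Psmb5, Psmb6 and Psmb7. Psmb8 (ENSMUSG00000024338.14, chr17:34197721-34201454, plus strand) was at 56.9 and 50.8 CPM in WT IEC colon and at 20.6 and 30.5 CPM in DDX5 ΔIEC colon. Psmb9 (ENSMUSG00000096727.2, chr17:34181987-34187764, minus strand) was at 25.1 and 23.4 CPM in WT IEC colon and at 12.1 and 16.3 CPM in DDX5 ΔIEC colon. Psmb10 (ENSMUSG00000031897.9, chr8:105935735-105938444, minus strand) was at 92.0 and 95.0 CPM in WT IEC colon and at 67.4 and 81.9 CPM in DDX5 ΔIEC colon. In each of the 3, both DDX5 ΔIEC mice were below both WT IEC mice, and replicate 1 was the lower of the pair. The log2 fold change was −1.10 for Psmb8 (standard error 0.19, 95% interval −1.6 to −0.61, unadjusted p = 0.00237, adjusted p = 0.246 by edgeR quasi-likelihood and Benjamini-Hochberg). For Psmb9 it was −0.79 (standard error 0.16, 95% interval −1.20 to −0.38, unadjusted p = 0.00459, adjusted p = 0.264 by edgeR quasi-likelihood and Benjamini-Hochberg). For Psmb10 it was −0.34 (standard error 0.10, 95% interval −0.60 to −0.09, unadjusted p = 0.0186, adjusted p = 0.337 by edgeR quasi-likelihood and Benjamini-Hochberg), short of the criterion by size.

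The stretch before the start site of Psmb8 is shown because Psmb8 had the largest colon difference of the 3 subunits. Its capitals mark the gamma-activated site letters, which began 97 bases before the start site and which no other window of the 10 genes held.
Psmb8, chr17:34198065-34198194, plus strand: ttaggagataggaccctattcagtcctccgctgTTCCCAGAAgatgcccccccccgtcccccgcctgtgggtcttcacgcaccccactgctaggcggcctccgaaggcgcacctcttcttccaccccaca

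None of the constitutive subunits met the criterion in the colon. Psmb5, Psmb6 and Psmb7 had colon log2 fold changes from −0.04 to 0.02, with 0 of 3 at the criterion. Psmb5 was at 33.7 and 34.6 CPM in WT IEC colon and at 34.5 and 35.5 CPM in DDX5 ΔIEC colon. Psmb6 was at 71.0 and 72.0 CPM in WT IEC colon and at 73.4 and 66.9 CPM in DDX5 ΔIEC colon. Within a library, the ratio of Psmb8 to Psmb5 per kilobase of exon was 0.555 and 0.482 in WT IEC colon and 0.196 and 0.283 in DDX5 ΔIEC colon. The ratio of Psmb9 to Psmb6 was 0.181 and 0.166 in WT IEC colon and 0.0846 and 0.125 in DDX5 ΔIEC colon. The ratio of Psmb10 to Psmb7 was 2.6 and 2.68 in WT IEC colon and 1.88 and 2.32 in DDX5 ΔIEC colon. All 3 ratios were lower in both DDX5 ΔIEC mice than in both WT IEC mice. Of the other 11 subunits of the 20S core, 0 met the criterion in either direction, with a median log2 fold change of 0.02 and a range from −0.14 to 0.12. Among them Psmb4, the most abundant per kilobase, had a log2 fold change of 0.02 and Psma6 one of −0.02, and Psma5 and Psmb3 had −0.14 and 0.12. The 9 genes of proteasome activators and assembly factors also gave 0 at the criterion, with a median of −0.07. Psme1 and Psme2, which encode the interferon-inducible activator of the proteasome, had log2 fold changes of −0.28 and −0.12, and the assembly gene Psmg3 had −0.13.

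**Figure D2:**
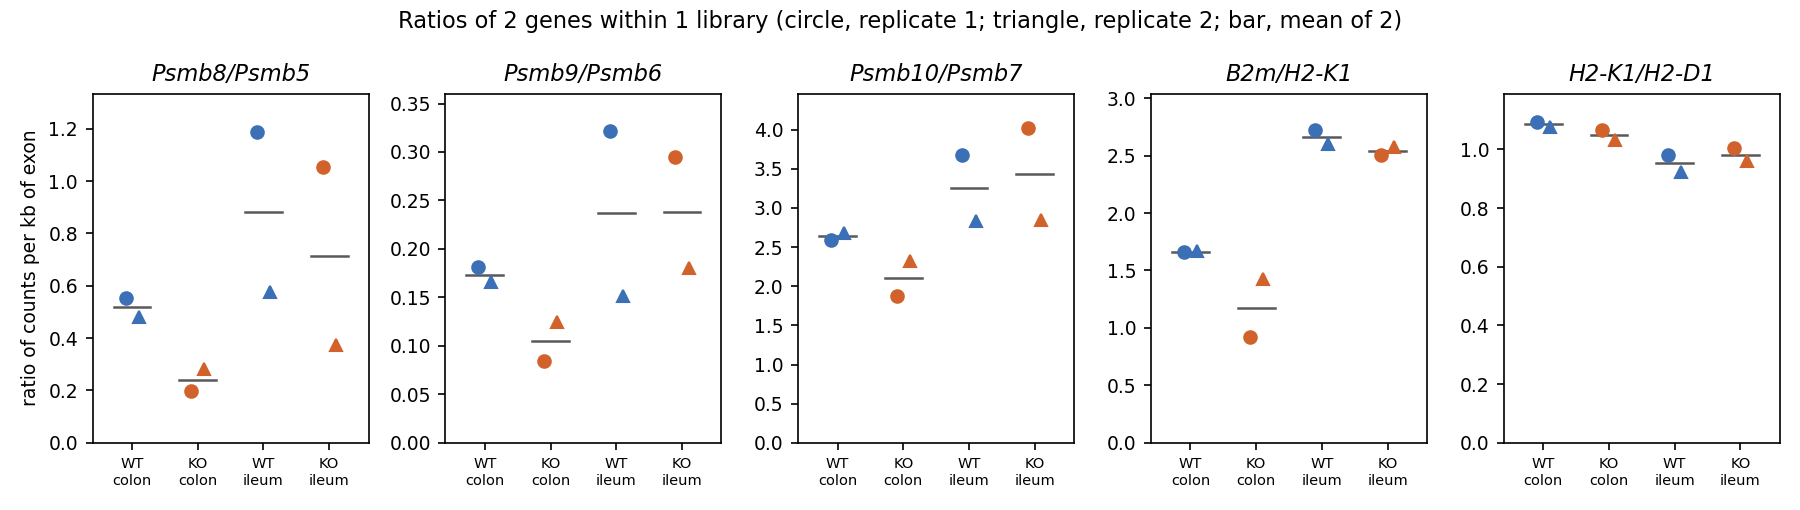
Ratio of 2 genes within each library, as counts per kilobase of exon, on linear axes that start at 0 (WT, WT IEC, blue; KO, DDX5 ΔIEC, orange; circles, replicate 1; triangles, replicate 2; bars, mean of 2 mice). The ratio of each inducible to its constitutive subunit is lower in both knockout colon libraries, such as 0.196 and 0.283 against 0.555 and 0.482 for Psmb8 to Psmb5, while H2-K1 to H2-D1 lies near 1 throughout.

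Nlrc5 (ENSMUSG00000074151.13, chr8:94434356-94527272, plus strand) encodes the transactivator of class I genes and had the largest colon difference of the 10. It was at 18.1 and 20.6 CPM in WT IEC colon and at 5.35 and 10.3 CPM in DDX5 ΔIEC colon, with both DDX5 ΔIEC mice below both WT IEC mice. Its log2 fold change was −1.36 (standard error 0.22, 95% interval −1.93 to −0.80, unadjusted p = 0.00165, adjusted p = 0.238 by edgeR quasi-likelihood and Benjamini-Hochberg). Nlrc5 acts at class I promoters with the RFX and NF-Y factors, and these genes, the interferon regulatory factors, STATs and others formed a list of 17 regulators. Of them 2 were lower and 0 higher in the colon at the criterion, with a median log2 fold change of 0.01. The 2 were Stat2, a partner in type I interferon signalling, and Ciita, the class II counterpart of Nlrc5. Stat2 was at 61.3 and 64.4 CPM in WT IEC colon and at 34.6 and 53.4 CPM in DDX5 ΔIEC colon (log2 fold change −0.55, and −0.86 to −0.24 with a library left out). Ciita was at 5.20 and 6.25 CPM in WT IEC colon and at 1.43 and 1.73 CPM in DDX5 ΔIEC colon (log2 fold change −1.86). Irf1, an interferon-induced activator of class I genes, and Stat3 had log2 fold changes of 0.13 and 0.15.

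These colon results rest on the fit and on single mice. When all 8 libraries shared one fit, 1 of 10 met the criterion, Tap1, where 1045 of 16178 genes did in either direction. In that fit B2m, Tap2, Psmb8, Psmb9 and Nlrc5 had log2 fold changes of −0.67, −0.50, −1.07, −0.77 and −1.29. Their unadjusted p by edgeR was no longer under 0.05. All 10 log2 fold changes stayed negative with a library left out, but their size moved with single mice, from −1.09 to −0.35 for B2m, from −1.85 to −0.91 for Nlrc5 and from −0.17 to −0.000539 for Tapbp.

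**Figure D3:**
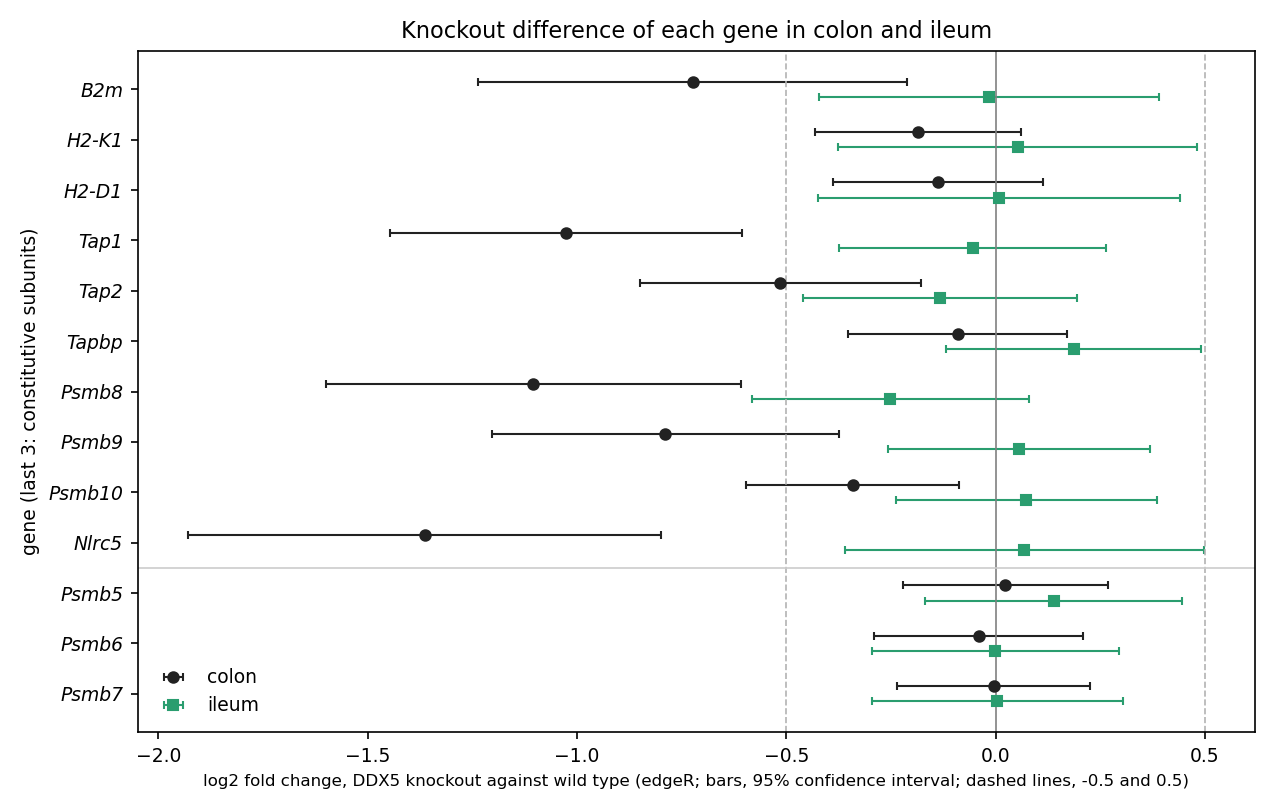
Log2 fold change of DDX5 ΔIEC against WT IEC for each gene in the colon (black circles) and the ileum (green squares), with 95% confidence intervals from edgeR's quasi-likelihood fit (2 libraries per genotype) and dashed lines at −0.5 and 0.5. The fit held a term for the replicate number, and the sources used here do not say which mice shared a harvest. Colon estimates run from −1.36 for Nlrc5 to −0.09 for Tapbp, ileum estimates from −0.25 for Psmb8 to 0.19 for Tapbp, and Psmb5, Psmb6 and Psmb7 lie near 0 in the colon.

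The neighbouring pathways in the colon divided into lists with lower genes and lists with none. Of 8 other peptide loading genes, 0 met the criterion, with a median log2 fold change of −0.07. The chaperones Calr and Hspa5 had −0.21 and 0.36, and Tapbpl, a relative of tapasin, had −0.35. Of the 16 tested among 18 other class I and class I-like genes, 4 were lower (H2-Q4, H2-Q7, H2-Q10 and H2-T23) and 1 higher (Azgp1), with a median of −0.46. H2-T23, a non-classical heavy chain, was at 203 and 200 CPM in WT IEC colon and at 119 and 171 CPM in DDX5 ΔIEC colon (log2 fold change −0.51, and −0.76 to −0.24 with a library left out). H2-Q7 was at 8.51 and 8.27 CPM in WT IEC colon and at 2.10 and 4.01 CPM in DDX5 ΔIEC colon (−1.5). H2-Q4 had a log2 fold change of −0.54, and H2-Q2, the highest of this list per kilobase, had −0.32, short of the criterion. Counts of these close relatives are uncertain in the same way as those of H2-K1 and H2-D1. H2-Q10 and Azgp1 are named here outside the naming rule, with their values already known.

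No interferon receptor gene met the criterion in the colon, and 10 of 16 interferon gamma response genes were lower at it. Of the 5 tested in the list of interferon gamma and its receptor path, Socs1, a feedback inhibitor, was lower and 0 were higher, with a median log2 fold change of 0.08. Ifngr1 was at 208 and 183 CPM in WT IEC colon and at 289 and 248 CPM in DDX5 ΔIEC colon (log2 fold change 0.45, under the size of the criterion), and Ifngr2 had 0.13. Ifng itself was at 0.210 and 0.132 CPM in WT IEC colon and at 0.110 and 0 CPM in DDX5 ΔIEC colon, and was too low to be tested. A count of 0 in that last library allows up to 0.154 CPM of its total, for counting error only. In the list of type I and type III interferon receptors, which holds 4 receptor genes and the gene of a kinase that binds such receptors, none met the criterion (0 of 5, median −0.07), with 0.07 for Il10rb, −0.07 for Ifnar1, −0.63 for Ifnar2, past the criterion by size and not by p, and −0.15 for Ifnlr1. Of the 5 in the list, 4 had a negative log2 fold change, and in 2 both DDX5 ΔIEC libraries lay below both WT IEC libraries. Of the 16 response genes 0 were higher and 6 did not meet the criterion, and their median log2 fold change was −0.94. Summed, these 16 genes were at 233 and 236 CPM in WT IEC colon and at 104 and 159 CPM in DDX5 ΔIEC colon. The GTPase genes Iigp1, Igtp and Irgm1 had log2 fold changes of −1.96, −0.91 and −0.64. Iigp1 was at 21.1 and 23.7 CPM in WT IEC colon and at 4.80 and 6.93 CPM in DDX5 ΔIEC colon. In the class II path 7 of 8 tested were lower and 0 higher, with a median of −2.29. Its highest gene per kilobase, Cd74, had −3.01, H2-Ab1 and H2-Aa had −2.27 and −2.84, and the protease gene Ctss had 0.16.

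**Figure D4:**
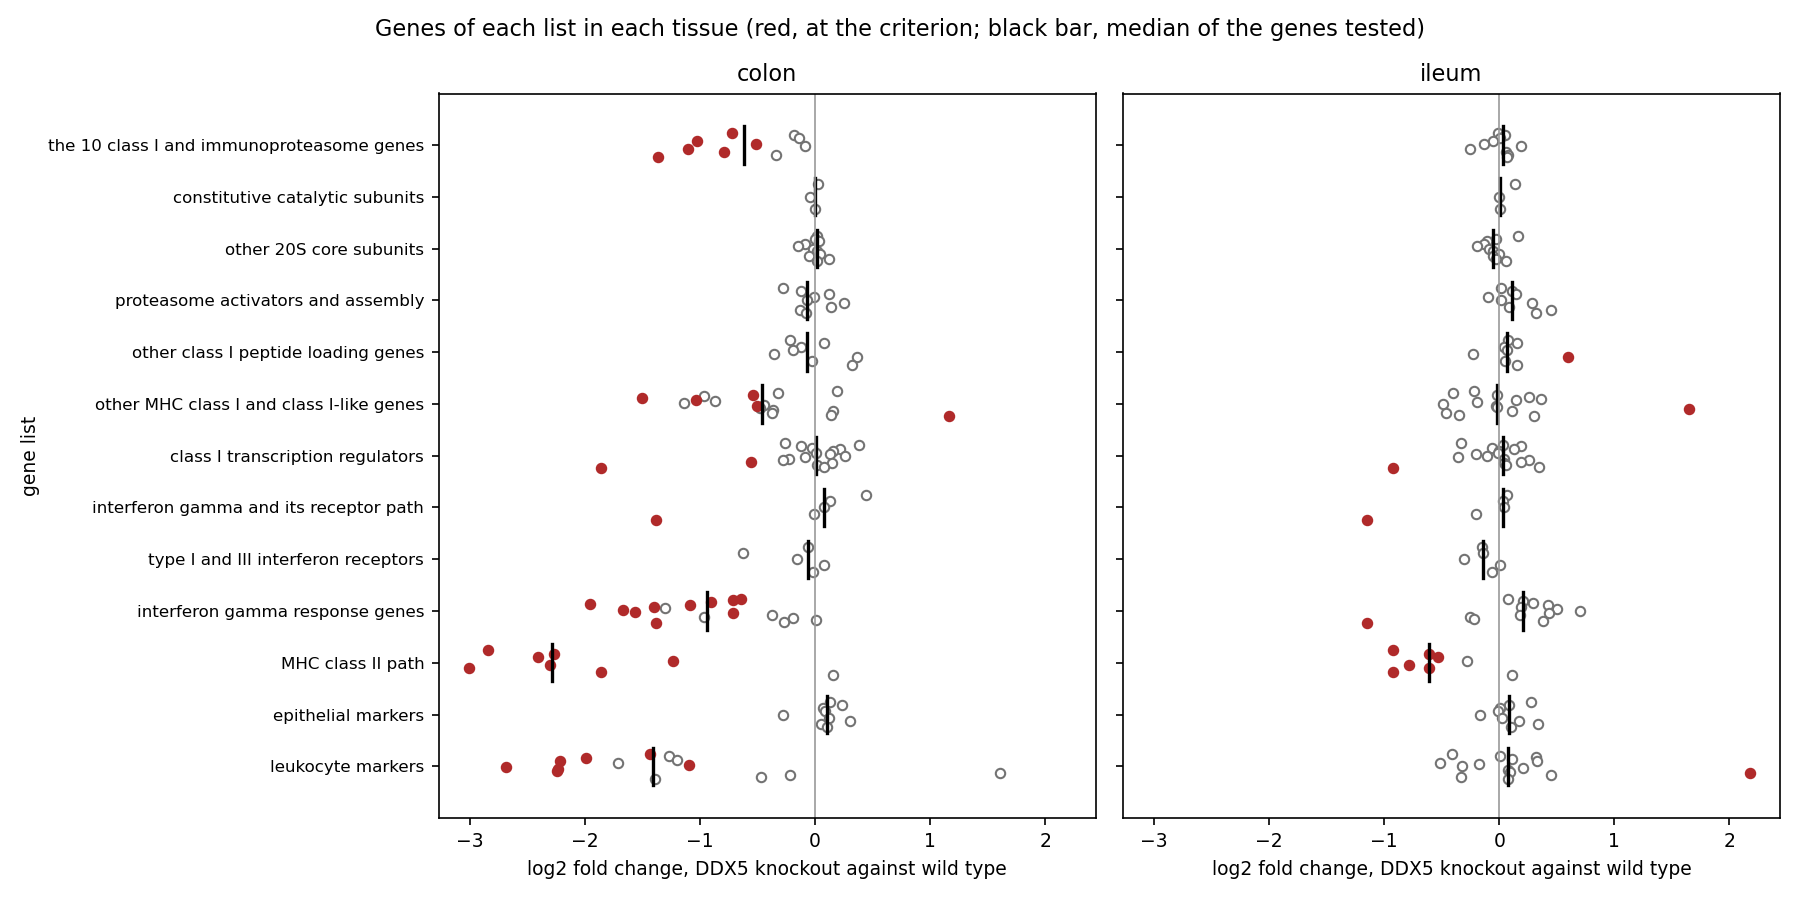
Log2 fold change of DDX5 ΔIEC against WT IEC for each tested gene of each list in the colon (left) and the ileum (right), with 2 libraries per genotype (filled red, at the criterion; open, not; black bar, median of the tested genes). In the colon the medians are −0.62 for the 10 class I and immunoproteasome genes, −0.94 for interferon gamma response genes and −1.41 for leukocyte markers, and in the ileum 0.03, 0.21 and 0.08.

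Leukocytes also carry these RNAs, and most of their tested markers also had negative log2 fold changes in the colon. Of 22 leukocyte markers, 14 were tested in the colon, and 7 were lower and 0 higher at the criterion, with a median log2 fold change of −1.41. Their summed level was 62.8 and 45.6 CPM in WT IEC colon and 12 and 26.0 CPM in DDX5 ΔIEC colon. The most abundant by CPM was Ptprc, at 22.2 and 19.9 CPM in WT IEC colon and 5.41 and 10.9 CPM in DDX5 ΔIEC colon, and per kilobase it was Gzma, at 10.3 and 7.17 CPM against 0.276 and 2.73. Gzmb had a log2 fold change of −2.23 and Nkg7 one of −2.25, while Lyz2 had −0.22. These sizes moved with single mice, from −4.85 to −1.18 for Gzmb and from −4.94 to −1.67 for Gzma with a library left out. Cd4 and Cd79a were at 0 in at least 1 of the 8 libraries. In the colon the summed markers were lower in both DDX5 ΔIEC mice, replicate 1 more so, as were 9 of the 10 class I and immunoproteasome genes. The part of leukocytes in the class I result was not tested. Epithelial markers were not lower, with 0 of 9 at the criterion and a median of 0.10. Krt8, Krt19, Krt20 and Krt18 had log2 fold changes of 0.08, 0.12, 0.31 and −0.28. Scaled to the summed epithelial markers of each library instead of TMM, 6 of 10 class I genes were again lower, while the median of all genes moved to −0.10. The stromal and vascular list, summing to under 20 CPM in each library, gave 1 lower (Dcn) and 1 higher (Pecam1) of 6 tested, with Vim at −0.65 and Col3a1 at −0.74. Of 7 colonic markers 1 was lower and 3 were higher, and of 4 ileal markers tested 1 was higher. Among these Retnlb had a colon log2 fold change of −2.53, Aqp8 0.79, Car1 0.01, Fabp6 1.09 and Slc10a2 −0.59.

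In the ileum the class I and immunoproteasome genes showed no difference between the genotypes that met the criterion. None of the 10 did (0 of 10), where 7.35% of all 14068 genes tested met it in either direction. The median log2 fold change of the 10 was 0.03, with 4 negative and 6 positive, and the direction depended on single mice. In fits of 7 libraries, without DDX5 ΔIEC replicate 2, the library with the repeat-like counts, 0 of 10 were negative and the median was 0.42, and without DDX5 ΔIEC replicate 1 all 10 were negative and the median was −0.52. Nor did any of the 10 pass the adjusted threshold in edgeR's quasi-likelihood test, which 98 genes (0.697%) passed, or have an unadjusted p under 0.05. DESeq2 called 0 of 10 at either threshold. In 0 of 10 were the genotypes apart, whereas 39.5% of all genes tested had no overlap in one direction or the other. Without the 3 repeat-like genes it was again 0 of 10 at the criterion, and 20 genes passed the adjusted threshold. The number passing it was 1 with no term for the replicate number and 7 with all 8 libraries in one fit. It was 39 with DESeq2 and 423 with no filter on low counts.

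The ileal chains were higher in replicate 1 than in replicate 2 of both genotypes. The ileal intervals come from fits with a term for the replicate number. That term takes up differences between replicates 1 and 2 that both genotypes share. The sources used here do not say which mice shared a harvest, so this pairing is assumed. B2m was at 700 and 475 CPM in WT IEC ileum and at 765 and 424 CPM in DDX5 ΔIEC ileum (log2 fold change −0.02, 95% interval −0.42 to 0.39). H2-K1 was at 778 and 554 CPM in WT IEC ileum and at 927 and 499 CPM in DDX5 ΔIEC ileum (0.05, −0.38 to 0.48). H2-D1 was at 784 and 595 CPM in WT IEC ileum and at 913 and 514 CPM in DDX5 ΔIEC ileum (0.01, −0.42 to 0.44). For each chain the DDX5 ΔIEC mice were the highest and the lowest of the 4, and enclosed both WT IEC mice.

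In the loading genes replicate 1 was also above replicate 2 in both genotypes. Tap1 was at 110 and 50.2 CPM in WT IEC ileum and at 93.6 and 54.8 CPM in DDX5 ΔIEC ileum (log2 fold change −0.05, 95% interval −0.37 to 0.26). Tap2 was at 43.5 and 25.6 CPM in WT IEC ileum and at 43.0 and 21.2 CPM in DDX5 ΔIEC ileum (−0.13, −0.46 to 0.19). Tapbp was at 222 and 161 CPM in WT IEC ileum and at 253 and 183 CPM in DDX5 ΔIEC ileum (0.19, −0.12 to 0.49). For all 3 genes the spread between the mice of a genotype exceeded the difference between genotype means.

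Of the ileal immunoproteasome subunits Psmb8 had the largest log2 fold change, and it did not meet the criterion. Psmb8 was at 129 and 59.7 CPM in WT IEC ileum and at 124 and 43.1 CPM in DDX5 ΔIEC ileum (log2 fold change −0.25, 95% interval −0.58 to 0.08). Psmb9 was at 55.5 and 24.1 CPM in WT IEC ileum and at 53.8 and 27.0 CPM in DDX5 ΔIEC ileum (0.06, −0.26 to 0.37). Psmb10 was at 165 and 122 CPM in WT IEC ileum and at 189 and 117 CPM in DDX5 ΔIEC ileum (0.07, −0.24 to 0.38). The replicates again differed more than the genotypes did. The ratio of Psmb8 to Psmb5 per kilobase was 1.19 and 0.576 in WT IEC ileum and 1.05 and 0.373 in DDX5 ΔIEC ileum. The transactivator Nlrc5 was at 20.5 and 4.23 CPM in WT IEC ileum and at 18.9 and 5.57 CPM in DDX5 ΔIEC ileum (log2 fold change 0.07, 95% interval −0.36 to 0.50), the widest relative spread between mice among the 10. With an ileum library left out, in fits without the replicate term, the log2 fold change of Nlrc5 ran from −1.20 to 1.54, outside that interval.

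The difference between the replicates was measured for all 10 genes. The ratio of replicate 1 to replicate 2 in CPM ran from 1.32 to 4.85 (median 1.58) in WT IEC ileum and from 1.39 to 3.4 (median 1.83) in DDX5 ΔIEC ileum. In DDX5 ΔIEC colon it ran the other way, from 0.520 to 0.930 (median 0.785), and in WT IEC colon from 0.879 to 1.12 (median 1.04). Over all genes tested the median ratio was 1.01, 1.00, 0.998 and 0.999 in WT IEC colon, DDX5 ΔIEC colon, WT IEC ileum and DDX5 ΔIEC ileum. The ileal interferon gamma response genes followed the same order, at summed levels of 215 and 103 CPM in the WT IEC mice and 204 and 110 CPM in the DDX5 ΔIEC mice. The leukocyte markers summed to 128 and 106 CPM in WT IEC ileum and to 132 and 77.3 CPM in DDX5 ΔIEC ileum. Their part in these differences between mice was not tested. The absence of calls in the ileum rests partly on single libraries. Without DDX5 ΔIEC replicate 1, in the fit of the 7 other libraries, the log2 fold changes of Psmb8 and Tap2 were −1.14 and −0.72. With 1 ileum library left out at a time they ran from −1.14 to 0.49 for Psmb8 and from −0.72 to 0.33 for Tap2.

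The related ileal lists were mostly without calls. The constitutive subunits gave 0 of 3 at the criterion with a median log2 fold change of 0.00, the other 20S subunits 0 of 11 (median −0.06) and the activators and assembly factors 0 of 9 (median 0.11). Of other loading genes Hspa5 was higher (1 of 8, log2 fold change 0.60), and of other class I genes H2-T24 was higher (1 of 15 tested), named outside the naming rule with its value already known. Of 17 regulators Ciita was lower, at 69.6 and 32.8 CPM in WT IEC ileum and at 41.8 and 14.7 CPM in DDX5 ΔIEC ileum (log2 fold change −0.93, adjusted p = 0.0274 by edgeR quasi-likelihood and Benjamini-Hochberg). Socs1 was the 1 gene lower both among 5 of the interferon gamma path and among 13 tested response genes, whose median was 0.21. It was at 18.0 and 19.5 CPM in WT IEC ileum and at 9.93 and 6.96 CPM in DDX5 ΔIEC ileum (log2 fold change −1.15, adjusted p = 0.0288 by edgeR quasi-likelihood and Benjamini-Hochberg). These adjusted calls were lost without a term for the replicate number (adjusted p = 0.691 for Ciita and 0.305 for Socs1 by edgeR quasi-likelihood and Benjamini-Hochberg) and by DESeq2. Over all alternatives that used every library the log2 fold change ran from −1.02 to −0.85 for Ciita and from −1.24 to −1.14 for Socs1. With a library left out it ran from −1.82 to −0.21 for Ciita and from −1.44 to −0.90 for Socs1. Iigp1 and Igtp had ileal log2 fold changes of 0.42 and 0.29. The list of type I and III receptors and the kinase gave 0 of 5 (median −0.14). In the class II path 6 of 8 tested were lower and 0 higher, with a median of −0.61, but in 0 of 8 were both DDX5 ΔIEC libraries below both WT IEC libraries. Without a term for the replicate number Cd74, H2-Ab1 and H2-Aa no longer had an unadjusted p under 0.05. With a library left out their direction was not fixed, from −1.64 to 0.24, from −1.71 to 0.26 and from −2.14 to 0.12. Of 15 leukocyte markers tested, 0 were lower and 1, Lyz2, was higher at 2.18, with a median of 0.08. Epithelial markers gave 0 of 9, with a median of 0.08. The stromal list gave 0 of 3 tested, the ileal markers 0 of 7, and the colonic markers 1 lower of 5 tested (Car1, −2.16).

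Whether the knockout difference was another in the ileum than in the colon was tested directly, as an interaction over all 8 libraries. None of the 10 genes passed (0 of 10, each with adjusted p = 1 by edgeR quasi-likelihood and Benjamini-Hochberg), where 0.0124% of 16178 genes did (2 genes), and 755 had an unadjusted p under 0.05. DESeq2 called 17 genes and 0 of the 10. All 10 estimates were positive, that is, the ileal log2 fold change was the less negative, from 0.18 for H2-D1 to 1.26 for Nlrc5, with a median of 0.55. Without DDX5 ΔIEC ileum replicate 1 the median was 0.0139 with 4 of 10 negative, and without DDX5 ΔIEC ileum replicate 2 it was 0.96 with 0 of 10 negative. For Nlrc5 the 95% interval ran from −1 to 3.52, for Tap1 from −0.32 to 2.08 around 0.88, and for B2m from −0.37 to 1.74 around 0.69. The criterion met in the colon and missed in the ileum was therefore not shown to be a difference between the tissues. With no filter on low counts Psmb8, Tap1 and Nlrc5 passed, and 210 genes in all.

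The tissues themselves were compared within each genotype in the same fit. In WT IEC none of the 10 differed between ileum and colon at an adjusted p under 0.05 by edgeR (0 of 10), where 34.2% of 16178 genes did. Of the 10, 1 had an unadjusted p under 0.05, Psmb10, with a log2 difference of 0.62 (adjusted p = 0.0680 by edgeR quasi-likelihood and Benjamini-Hochberg), and DESeq2 called that gene. With a library left out the difference of Psmb10 ran from 0.38 to 0.82, and it did not meet the criterion in every such fit. With no filter on low counts 5 of 10 passed the adjusted threshold, where 5850 of 40178 genes did. In DDX5 ΔIEC 5 of 10 were higher in the ileum by the adjusted edgeR test, where 18.0% of genes were, and all 5 by at least 1 on the log2 scale, where 10% were. Psmb8 differed by 1.71 (adjusted p = 0.0286), Psmb9 by 1.51 (adjusted p = 0.0233), B2m by 1.38 (adjusted p = 0.0127), Tap1 by 1.22 (adjusted p = 0.0356) and Psmb10 by 1.04 (adjusted p = 0.00895), as log2 differences tested by edgeR quasi-likelihood and Benjamini-Hochberg. For all 5, both DDX5 ΔIEC ileum libraries were above both DDX5 ΔIEC colon libraries. The share of all genes with such a gap was not measured, and the 5 had been picked by the test, so the gap adds no support. These calls depended on the mice and did not all hold in fits that left out 1 library. Without DDX5 ΔIEC colon replicate 1 the differences were 1.45 for Psmb8, 1.31 for Psmb9, 1.06 for B2m, 0.96 for Tap1 and 0.90 for Psmb10. With a library left out the difference ran from 0.74 to 2.29 for Psmb8, from 0.91 to 1.94 for Psmb9, from 0.89 to 1.80 for B2m and from 0.78 to 1.58 for Tap1. Leukocyte markers were also higher in DDX5 ΔIEC ileum than in DDX5 ΔIEC colon, 9 of 18 tested by the adjusted test, with 18 of 18 positive and a median of 2.09, against a median of 0.50 in WT IEC. Their part in the tissue difference was not tested.

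The genes whose pattern over the 8 libraries was most like the mean of the 10 were named by the root mean square difference of centred log2 CPM, among 10549 genes with a mean of at least 5 CPM. The closest were Il18bp at 0.133, Zc3h12a at 0.181, Rab19 at 0.2, Plekhn1 at 0.203 and Ddah1 at 0.209, where the median of all genes compared was 0.528. The 10 genes themselves lay between 0.204 for Tap1 and 0.598 for Nlrc5. Il18bp was at 8.51, 9.33, 5.85 and 7.47 CPM in the colon libraries and at 14.0, 8.26, 16.4 and 6.32 CPM in the ileum libraries, in the order WT IEC and then DDX5 ΔIEC. Like 9 of the 10 genes, all but Tapbp, it was lower in both DDX5 ΔIEC colon mice, and like all 10 it was higher in replicate 1 of both ileal genotypes. As Il18bp was picked by its pattern over these same libraries, this likeness follows from the choice. The mice are shared between the tissues, so the 8 libraries are not independent.

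Of the 10 genes, 7 lie in the MHC region of chromosome 17, within 1351.6 kb from Tapbp to H2-D1. Positions are from GENCODE vM21 on GRCm38, where the identifiers of H2-K1, Tapbp, Psmb8 and Psmb9 have another version than in the deposited tables. In the colon 4 of the 7 were lower at the criterion, and these 4, Psmb9, Tap1, Psmb8 and Tap2, start within 16.0 kb of the start of Tap1. Of the 73 other genes tested in the region 9 were lower and 1 higher, with a median log2 fold change of −0.03. Of those 9, 5 were class II genes. In the ileum 0 of the 7 met the criterion, and 6 of 66 other genes were lower and 0 higher. Tapbp, H2-K1 and H2-D1, which did not meet it, start farther from Tap1. B2m, Nlrc5 and Psmb10 lie on chromosomes 2 and 8, and B2m and Nlrc5 were also lower in the colon at the criterion. Whether position bears on the calls was not tested.

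**Figure D5:**
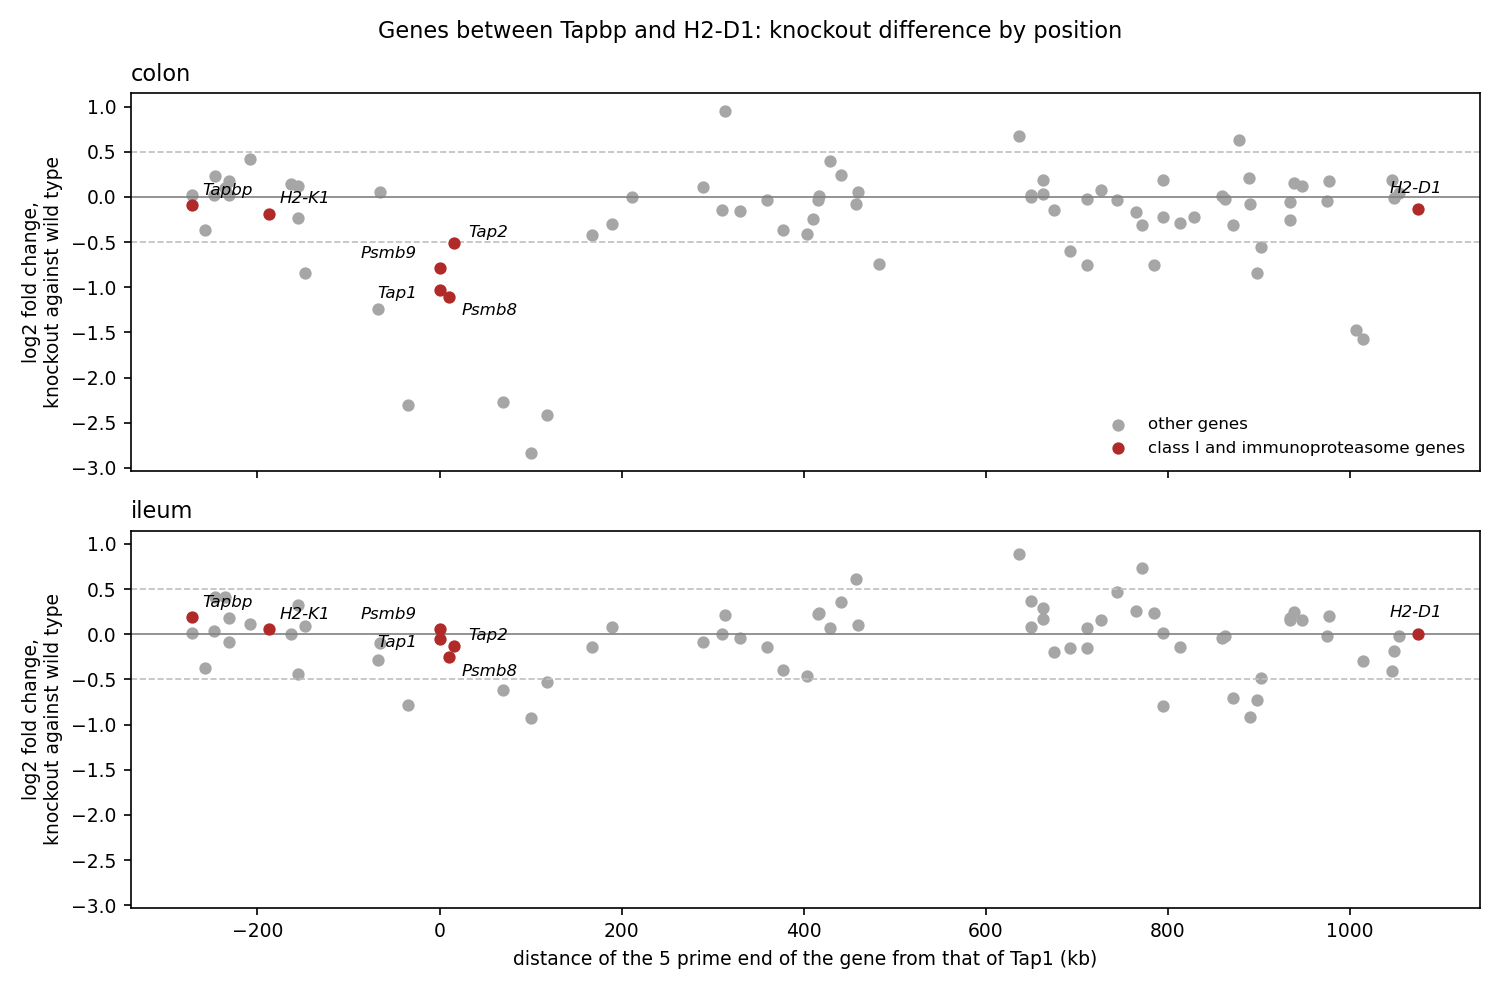
Log2 fold change of DDX5 ΔIEC against WT IEC for each tested gene from Tapbp to H2-D1, by the distance of its 5 prime end from that of Tap1 in kb, in the colon (top) and the ileum (bottom), with 2 libraries per genotype (red, the 7 class I and immunoproteasome genes there; grey, other genes; dashed lines, −0.5 and 0.5). In the colon Psmb9, Tap1, Psmb8 and Tap2 lie together at or below −0.51 and H2-K1, H2-D1 and Tapbp at −0.19, −0.14 and −0.09.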

How the data were processed

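Both deposited tables, 1 per tissue, were used with every per-sample column. The authors aligned paired-end reads of ribodepleted, stranded libraries to mm10 with STAR 2.6.1a and made the raw counts with featureCounts (version and strand setting not given) from uniquely mapped reads over exons. The deposited normalized signal is these counts divided by a size factor per library, made by the authors with DESeq2 1.18.1, a version given in the submitters' notes. The authors' comparison of the genotypes is deposited in the same tables, where the log2 column and its standard error give the knockout over the wild type. Its Wald statistic is a score that the authors deposited from DESeq2. The authors' p-value, unadjusted and adjusted, came from the same comparison. No column of that comparison was used. Only the raw counts were tested here, with R 4.3.3, edgeR 4.0.16, DESeq2 1.42.0 and Python 3.11.15.

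Within each tissue genes were filtered with a minimum count of 10, scaled with TMM and fitted with terms for genotype and replicate number. Tissues and the interaction were tested over all 8 libraries in 1 fit without that term, and a gene listed in a single table was counted as 0 in the other. CPM per library come from TMM over all 8 libraries, so their ratios differ slightly from the fold changes of the tissue fits. The adjusted threshold was 0.05. Counts up to 3 are compatible with a count of 0, and Wilson intervals cover 95%. Alternatives tried were no term for the replicate number, DESeq2, RLE scaling, other filters, all libraries in one fit, the mouse as a term, scaling to epithelial markers, leaving out repeat-like genes, and leaving out each library. Simulated counts, in which 200 genes had been changed, served to test the fits. Published normalized values of 37 genes matched the deposited columns within a relative tolerance of 0.0001, which tied colon and ileum libraries of the same number to 1 mouse in 4 of 4 cases.

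The 10 genes and the gene lists were chosen with earlier results of these data known. Named are all 10 genes, Ddx5, the 5 genes closest in pattern with a mean of at least 5 CPM, and from each list at most 4 genes: the 2 with the highest mean counts per kilobase and the 2 with the smallest unadjusted p in either genotype comparison. Outside this rule, and with their values known, Ptprc, Cd4, Cd79a, Ifng, H2-Q10, H2-T24, Azgp1 and the 3 repeat-like genes are named, as is Psmb7 for the ratios, and 1 item is not reported here. Motifs were searched in RefSeq promoter windows, and shared sequence was measured over GENCODE transcripts.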

Additional observations from a re-analysis of the deposited data

How the results depend on the processing

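Alternatives were compared with the fits of the report, and those scaled to epithelial markers or without the 3 repeat-like genes were chosen after seeing the data. When a library is left out, its group keeps 1 library, which is assumed to vary like the other groups, and the comparator is the fit of all 8 libraries together. In the colon 0 genes passed the adjusted threshold, against 5 with no replicate block, 117 with DESeq2 (4 of the 10 genes), 10 with all 8 libraries in one fit and 10 scaled to epithelial markers. At the criterion 1031 genes became 508 with DESeq2, and 6 of the 10 genes became 1 with all 8 libraries in one fit. That fit had 10 adjusted genes, 1045 at the criterion and 1 of the 10 genes, and with each library left out of it these numbers ran from 0 to 193, from 648 to 1794 and from 0 to 2, the upper ends without DDX5 ΔIEC colon replicate 2. With a library left out the colon log2 fold change ran from −1.09 to −0.35 for B2m, −0.23 to −0.13 for H2-K1, −0.20 to −0.0537 for H2-D1, −1.30 to −0.74 for Tap1, −0.63 to −0.39 for Tap2, −0.17 to −0.000539 for Tapbp, −1.39 to −0.82 for Psmb8, −0.998 to −0.58 for Psmb9, −0.47 to −0.19 for Psmb10 and −1.85 to −0.91 for Nlrc5. It ran from −0.86 to −0.24 for Stat2, −0.76 to −0.24 for H2-T23, −2.0 to −1.07 for H2-Q7, −0.72 to −0.35 for H2-Q4, −2.0 to −1.71 for Ciita, −2.0 to −0.92 for Socs1, −0.95 to −0.33 for Irgm1, −1.31 to −0.53 for Igtp, −2.22 to −1.69 for Iigp1, −3.60 to −2.47 for Cd74, −4.94 to −1.67 for Gzma, −4.85 to −1.18 for Gzmb, −2.51 to −1.97 for Nkg7, 0.37 to 1.48 for Pecam1, −1.96 to −0.95 for Dcn, 0.90 to 1.32 for Fabp6, −3.46 to −1.58 for Retnlb and 0.54 to 1.04 for Aqp8. The log2 CPM difference between replicates 1 and 2 was taken for each gene in each genotype. Across genes, the differences of WT IEC and DDX5 ΔIEC correlated with r = −0.000406 in the colon and 0.125 in the ileum. In the ileum 98 adjusted genes became 1 with no replicate block, 39 with DESeq2, 423 with no filter on low counts, 7 with all 8 libraries in one fit and 20 without the repeat-like genes, and the 7 of the joint fit became 0 to 1 with a library left out. At the criterion 1034 genes became 414 with DESeq2, and the 978 genes of the joint fit became 815 to 1642 with a library left out and its 0 of the 10 genes 0 to 2. Ileal log2 fold changes near 0 changed sign: B2m to 0.0203 with no replicate block and 0.0173 with all 8 libraries in one fit, Nlrc5 to −0.0293 and −0.0342 in the same fits and to −0.0133 scaled to epithelial markers. Scaled that way H2-K1 became −0.0251, H2-D1 −0.0697, Psmb9 −0.0259 and Psmb10 −0.00581, and with no filter on low counts H2-D1 became −0.0314. With a library left out the ileal log2 fold change ran from −0.48 to 0.40 for B2m, −0.43 to 0.49 for H2-K1, −0.43 to 0.42 for H2-D1, −0.56 to 0.56 for Tap1, −0.72 to 0.33 for Tap2, −0.0801 to 0.43 for Tapbp, −1.14 to 0.49 for Psmb8, −0.58 to 0.75 for Psmb9, −0.30 to 0.41 for Psmb10 and −1.20 to 1.54 for Nlrc5. It ran from −1.64 to 0.24 for Cd74, −1.71 to 0.26 for H2-Ab1 and −2.14 to 0.12 for H2-Aa. Between tissues in WT IEC, 0 of the 10 genes became 1 with DESeq2, 5 with no filter on low counts and 0 to 1 with a library left out, when 3153 to 6231 of all genes passed. H2-K1 there changed sign to −0.00482 with the mouse as replicate block and to −0.0287 with no filter on low counts. With a library left out the WT IEC tissue difference ran from −0.26 to 0.24 for H2-K1, −0.0199 to 0.38 for H2-D1, −0.34 to 0.80 for Tap1, −0.71 to 0.0615 for Tap2, −0.15 to 0.31 for Tapbp, −0.0154 to 1.19 for Psmb9, −2.19 to 0.0852 for Nlrc5 and 0.38 to 0.82 for Psmb10. In DDX5 ΔIEC 0 to 8 of the 10 genes passed, and the difference ran from −0.24 to 0.69 for H2-K1, −0.11 to 0.75 for H2-D1, −0.48 to 0.57 for Tap2, −0.51 to 1.28 for Nlrc5, and from 0.89 to 1.80 for B2m, 0.78 to 1.58 for Tap1, 0.10 to 0.60 for Tapbp, 0.74 to 2.29 for Psmb8, 0.91 to 1.94 for Psmb9 and 0.64 to 1.36 for Psmb10. For the interaction 2 genes became 1 with the mouse as replicate block, 17 with DESeq2, 210 with no filter on low counts (3 of the 10 genes) and 0 to 30 with a library left out. The interaction then ran from −0.25 to 0.68 for H2-K1, −0.30 to 0.56 for H2-D1, −0.22 to 0.84 for Tap2, −0.0660 to 1.56 for Psmb8, 0.19 to 1.11 for B2m, 0.43 to 1.56 for Tap1, 0.00145 to 0.51 for Tapbp, 0.19 to 1.52 for Psmb9, 0.0264 to 0.75 for Psmb10 and 0.0969 to 2.84 for Nlrc5. The ileal Ciita and Socs1 log2 fold changes ran from −1.82 to −0.21 and from −1.44 to −0.90 with a library left out, those of Hspa5 from 0.49 to 0.71, of Lyz2 from 1.48 to 3.59 and of Car1 from −3.18 to −1.24. The cause of these differences between fits was not tested.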
